A study of Mus musculus with 11 samples.

Results

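The genes that encode the protein subunits of the cytosolic ribosome were followed through acetaminophen (APAP) injury of the mouse liver. Members were the genes named Rpl or Rps followed by a number, with or without a final a, l, x or y, together with Rplp0, Rplp1, Rplp2 and Rpsa, that averaged at least 10 UPM over the sections, UPM being unique molecular identifiers (UMIs) per 1000000 of a section's total. Of 31053 genes in the tables, 80 had such a symbol and 77 were members, 46 of the large subunit and 31 of the small subunit. All 77 also passed the filter on low counts. No member lay near the threshold. The lowest were Rpl13a at 193 UPM, Rpl27 at 336, Rpl23a at 389, Rpl3 at 441 and Rps28 at 452. The 3 symbols left out were Rpl3l at 0.292, Rpl39l at 0.235 and Rpl10l at 0.

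The study followed wound closure and hepatocyte proliferation after APAP, which kills hepatocytes around the central veins. Visium, which counts polyadenylated transcripts on a grid of barcoded spots that each cover several cells, was run on 11 snap-frozen liver sections. Sections 2, 3 and 4 are labelled uninjured (0 h), 4 sections lettered A to D were taken 48 h after APAP, and a pair lettered A and B was taken at each of 24 h and 36 h. The methods give adult male C57BL/6JCrl mice that carried no transgene, were fasted and then received APAP by intraperitoneal injection, with 1 mouse per time point for this assay, and do not say whether the uninjured mouse was fasted. The labels call the injured sections POD without expanding it. Values of n therefore count sections, p-values measure only the spread between sections, and mouse and time cannot be told apart. Passing spots held 31292663 to 67045372 UMIs per section, so counting error was small, and the rarest member still had 6420 UMIs in its lowest section. All 6 hepatocyte markers were detected at every time, with summed levels of 94550 to 119134 UPM.

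Each ribosome holds about a single copy of most of these proteins, which assemble with ribosomal RNA into a large subunit, where peptide bonds form, and a small subunit, where the message is decoded. In mammals most of their transcripts begin with a run of pyrimidines at the very 5′ end, the terminal oligopyrimidine tract, through which mTORC1 and the RNA-binding protein LARP1 set their translation together. Growing and dividing cells need many ribosomes, and in resting hepatocytes a large part of messenger RNA encodes secreted proteins instead.

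Promoter sequences from RefSeq (GRCm38.p6) were found for 57 of the 77 members. Windows of 30 bases, 15 before and 15 from the annotated start on, are shown for some of the members on which the results turn, together with Rps6, the small subunit protein that the S6 kinases phosphorylate. Capitals mark the longest run of C and T on the strand that reads like the transcript. Where a gene had several starts, the window with the longest run is given.
Rpl35, chr2:39005117-39005146, minus strand: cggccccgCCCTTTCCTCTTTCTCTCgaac
Rpl38, chr11:114668565-114668594, plus strand: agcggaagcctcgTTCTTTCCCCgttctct
Rps6, chr4:86857353-86857382, minus strand: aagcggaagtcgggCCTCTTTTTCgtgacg
Rps27, chr3:90213634-90213663, minus strand: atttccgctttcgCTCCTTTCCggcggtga
Rps12, chr10:23787195-23787224, minus strand: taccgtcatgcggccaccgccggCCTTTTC
Rps19, chr7:24884898-24884927, plus strand: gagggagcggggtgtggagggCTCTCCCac
Rps27l, chr9:66946071-66946100, plus strand: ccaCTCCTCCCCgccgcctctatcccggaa
In Rpl35, Rpl38, Rps6 and Rps27 the run spanned the annotated start, in Rps12 and Rps19 it lay after it, and in Rps27l it lay wholly before it. Of windows not shown, that of Rpl13a had its run after the start and that of Rpl4 wholly before it. Runs of 7 or more C or T bases in any order were read only on the strand that reads like the transcript. Such a run stood in 32 of the 57 members (56.1%) and in 5747 of 27025 genes of the whole table counted the same way (21.3%), or 6095 of its 32851 windows (18.6%). The run is not shared by all members, and annotated starts can miss the true first base.

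In the sum of all members, the ribosomal protein transcripts took a larger share of the liver's UMIs after APAP in every injured section but 1. At 0 h they made up 5.84%, 6.17% and 5.83% of UMIs in sections 2, 3 and 4. The 24 h sections held 7.40% and 6.82%, and the 48 h sections held 7.65%, 6.71%, 7.76% and 6.88%. Those of 36 h stood apart from each other, section A with 5.82% and section B with 7.41%. Thus 7 of the 8 injured sections lay above all 0 h sections, and 36 h section A lay just below them. Group means were 5.95% ± 0.193 (SD, n = 3) at 0 h, 7.11% ± 0.406 (n = 2) at 24 h, 6.62% ± 1.13 (n = 2) at 36 h and 7.25% ± 0.533 (n = 4) at 48 h. These shares were compared without a test. Mitochondrial transcripts moved with the groups, from 4.10 to 5.995% of UMIs at 0 h to 1.80 to 4.53% after APAP, and their part in the shares was not tested. With mitochondrial UMIs left out of the total, the mean share was still 6.28% at 0 h and 7.27%, 6.85% and 7.46% at 24, 36 and 48 h. With each section's 50 most abundant other genes left out, the separation was weaker. There 48 h section B, at 10.34%, lay below 0 h section 3, at 10.43%. In that measure 36 h section A, at 8.86%, lay below every 0 h section, and the other injured sections lay above them all.

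**Figure D1:**
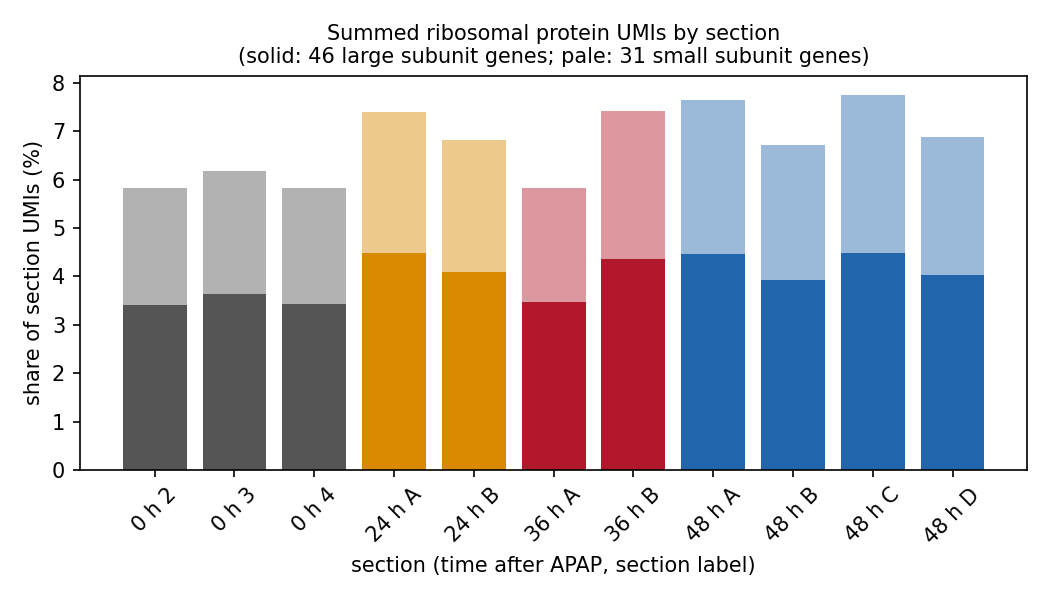
Share of each section's UMIs (y axis, percent) that came from the 77 ribosomal protein genes, by section (x axis), with the 46 large subunit genes in solid and the 31 small subunit genes in pale colour. The 0 h sections lie at 5.83 to 6.17%, 36 h section A at 5.82%, and the other injured sections at 6.71 to 7.76%.

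Both subunits contributed. Large subunit genes rose from a mean of 3.50% of UMIs at 0 h to 4.30% at 24 h and 4.22% at 48 h, and small subunit genes from 2.45% to 2.81% and 3.02%. The ratio of large to small subunit UMIs was 1.43 ± 0.0143 (SD, n = 3) at 0 h, 1.53 ± 0.0259 (n = 2) at 24 h, 1.45 ± 0.0351 (n = 2) at 36 h and 1.40 ± 0.0221 (n = 4) at 48 h. Both 24 h sections, at 1.54 and 1.51, lay above all others in this ratio.

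Gene by gene, the answer depended on what the members were measured against. With TMM scaling, which sets the bulk of genes to no change, the median member was lower than at 0 h by 0.16 at 24 h, 0.31 at 36 h and 0.24 at 48 h on the log2 scale, beside all-gene medians of 0.05, 0.05 and 0.01. Scaled to total UMIs instead, the median member was higher by 0.17, 0.12 and 0.28, and the median of all genes moved further, to 0.37, 0.49 and 0.54. Relative to the median gene the members were lower by nearly the same amount either way, with differences of -0.20, -0.36 and -0.26 under TMM and -0.20, -0.37 and -0.25 under total UMIs. The median member thus gained share of the transcript pool while the median gene gained more. In bulk sums of a section, fewer cells of a type and less RNA per cell cannot be told apart.

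With edgeR's quasi-likelihood test under TMM and an adjusted p under 0.05 over 14821 genes, 7 of the 77 members were higher and 6 lower at 24 h than at 0 h, beside 23.1% of all genes higher and 18.6% lower. For 36 h, 2 were higher and 25 lower, beside 16.8% and 12.4% of all genes. For 48 h, 25 were lower, beside 20.9% of all genes, and none was higher, beside 23.3%, also at an unadjusted p under 0.05 and by DESeq2. Scaled to total UMIs, edgeR called 23, 14 and 32 members higher at the 3 times and none lower, also at an unadjusted p under 0.05, so the direction of the calls turned with the scaling. The share of all genes called under total-UMI scaling is not given here, and under it the median gene rose more than the median member. The 36 h counts also rested on section A, without which 2 were higher and 8 lower, while without section B 1 was higher and 44 were lower. Without 1 of the 0 h sections, the 36 h count was 11 or 12. Leaving out any 0 h section, or 48 h section B or D, brought the 48 h count down to between 7 and 15, and leaving out 36 h section A or B took it to 39 or 40. The 24 h count went to 6 without either 24 h section, and to 30 and 36, mostly lower, without 36 h section A or B, all groups sharing 1 estimate of the spread. All 3 comparisons share the 0 h sections.

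**Figure D2:**
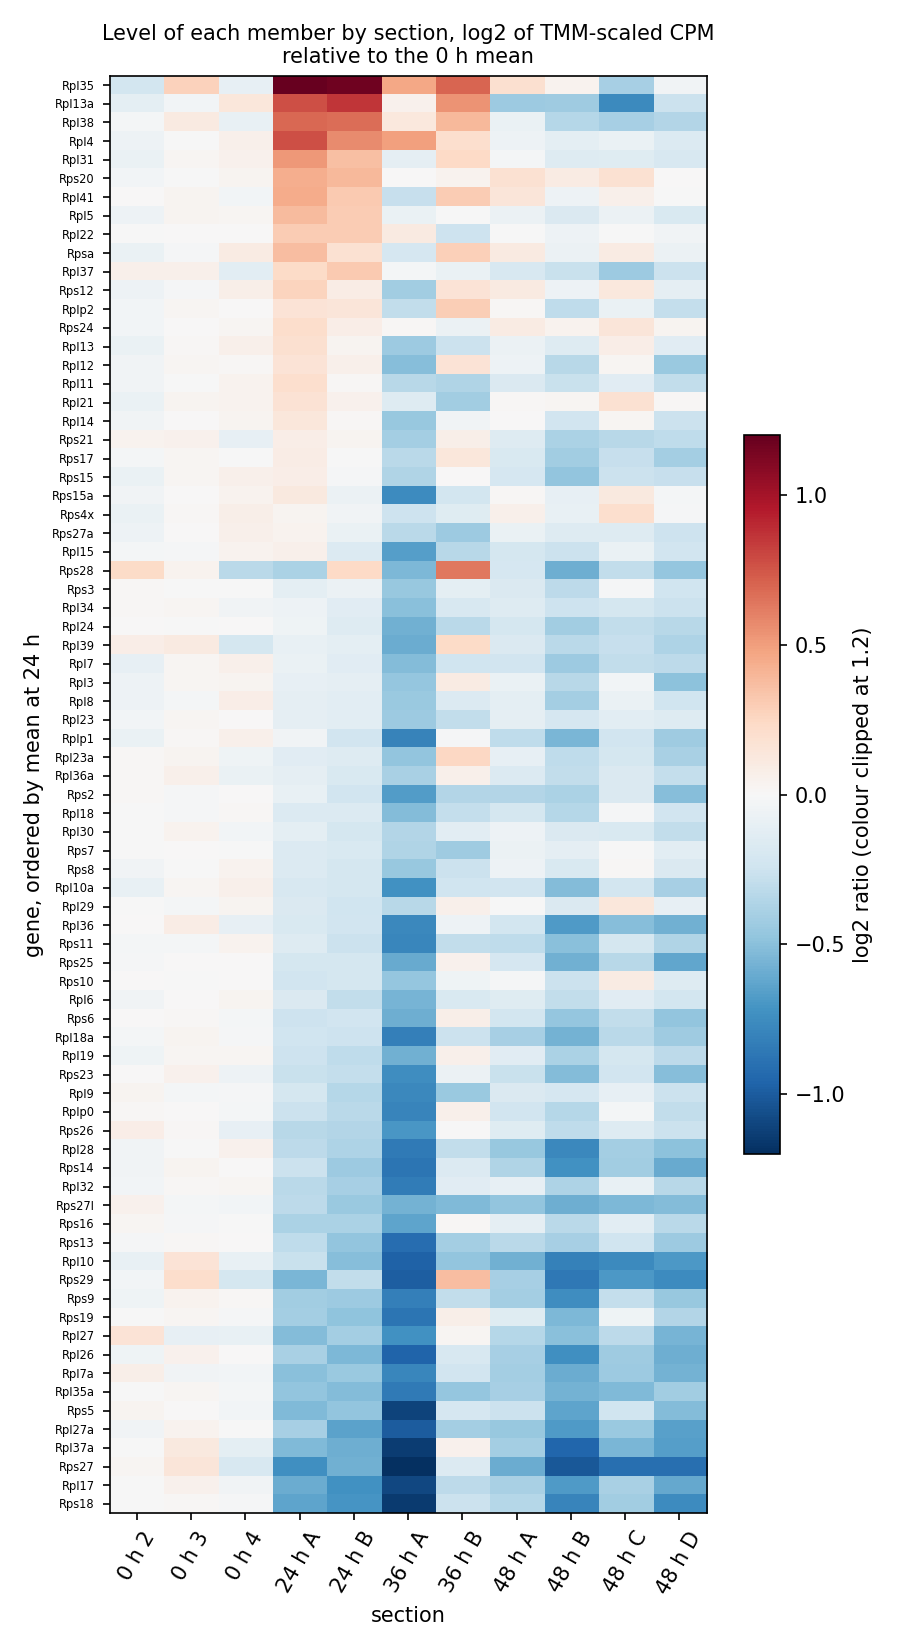
Level of the 77 members (rows, ordered by their mean at 24 h) in the 11 sections (columns), as log2 of TMM-scaled CPM relative to the 0 h mean, with red higher and blue lower. Rpl35, Rpl13a, Rpl38 and Rpl4 stand out in both 24 h sections, and 36 h section A is lower than section B for most members.

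A few large subunit genes rose well above the rest at 24 h under every scaling used. Rpl35, at the mouth of the peptide exit tunnel (chr2:39001580-39005624, minus strand), had 362, 512 and 395 CPM (UMIs per 1000000 of the TMM-scaled total) in the 0 h sections and 1081 and 950 at 24 h. The 36 h sections held 582 and 688 CPM, and those of 48 h 485, 435, 321 and 412 CPM. The 24 h and 36 h sections lay above every 0 h section, and the 48 h sections overlapped with 0 h. The log2 difference from 0 h was 1.26 ± 0.19 (SE) at 24 h (adjusted p = 0.00054) and 0.59 ± 0.19 at 36 h (adjusted p = 0.040), and -0.03 ± 0.16 at 48 h, which did not pass. Rpl35 carried the longest pyrimidine run of the windows shown, 18 bases.

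Rpl13a, known also for a role in translational silencing in inflamed cells, had 165, 175 and 197 CPM at 0 h, and 306 and 325 at 24 h. It then stood at 186 and 260 CPM (36 h) and at 132, 133, 105 and 149 CPM (48 h). Both 24 h sections lay above and all 48 h sections below every 0 h section. Its log2 difference was 0.82 ± 0.17 at 24 h (adjusted p = 0.0033) and -0.46 ± 0.14 at 48 h (adjusted p = 0.023), and the latter was 0.06 when scaled to total UMIs. Rpl38, linked to selective translation of patterning genes in the embryo, had 1127, 1236 and 1074 CPM at 0 h and 1842 and 1826 CPM 24 h after APAP, then 1251 and 1505 CPM (36 h) and 1086, 904, 868 and 900 CPM (48 h). Its difference was 0.68 ± 0.13 at 24 h (adjusted p = 0.0024). Rpl4, a core protein of the exit tunnel, had 805, 837 and 872 CPM at 0 h and 1436 and 1245 at 24 h, and rose by 0.68 ± 0.12 (adjusted p = 0.0013), with 0.35 ± 0.12 left at 36 h (adjusted p = 0.047). Rpl5, which with Rpl11 and 5S RNA can bind the p53 regulator MDM2, was higher at 24 h by 0.34 ± 0.10 (adjusted p = 0.018), whereas Rpl11 had 0.11 ± 0.11 and did not pass. The 24 h calls of Rpl35, Rpl13a, Rpl38 and Rpl4 held whichever section was left out, while the 36 h call of Rpl35 was lost without 7 of the 11 sections in turn and that of Rpl4 without 10. The 48 h call of Rpl13a was lost without 0 h section 4 or 48 h section C.

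Rpl35, Rpl13a, Rpl38 and Rpl4 were also the members with the largest falls between 24 and 48 h, a comparison that uses the same 24 h sections. In it 10 members were called, all lower, beside 34.1% of all genes called in either direction. Rpl35 fell by 1.298, Rpl13a by 1.28, Rpl38 by 0.96 and Rpl4 by 0.78 on the log2 scale, with adjusted p from 0.00047 to 0.00085. The count was 6 without 24 h section A and 16 without 36 h section A. From 24 to 36 h 4 members were called, all lower (15.6% of all genes), and from 36 to 48 h 2, Rpl13a and Rpl38, both lower (3.05%). Both counts fell to 0 without any single 0 h section, and without 36 h section B both became 9, of which 8 were higher for the step from 36 to 48 h. Scaled to total UMIs, no member was called between 24 and 36 h by edgeR, with 8 at an unadjusted p under 0.05 and 16 called by DESeq2 under its own size factors.

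At the other end, Rps18, Rpl17, Rpl27a and Rpl35a had the largest falls at 24 h among the members called lower, while Rps27 (-0.65) and Rpl37a (-0.56) did not pass. Rps18, at the head of the small subunit, had 1020, 1035 and 1017 CPM at 0 h, 659 and 628 at 24 h, 462 and 856 at 36 h, and 809, 593, 769 and 605 at 48 h. On this TMM scale every injured section lay below every 0 h section. By UPM, however, Rps18 was higher in 36 h section B and 48 h sections A and C than in any 0 h section. Its log2 difference was -0.67 ± 0.23 at 24 h (adjusted p = 0.038) and -0.56 ± 0.19 at 48 h (adjusted p = 0.032), while at 36 h, with sections A and B far apart, -0.64 ± 0.23 did not pass. Rpl17 fell by 0.66, Rpl27a by 0.52 and Rpl35a by 0.49 at 24 h, and the 3 fell by 0.66, 0.67 and 0.64 at 36 h. At 24 h the calls of Rps18, Rpl17 and Rpl27a were lost without either 24 h section, that of Rpl27a also without 0 h section 3, and that of Rpl35a without section B. At 36 h those of Rpl17 and Rpl27a were lost without section A, and that of Rpl17 also without any 0 h section. The Rps18 calls were also lost without any 0 h section, and that of 48 h without section B or D.

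Rpl10, a late-joining protein of the large subunit, fell by 0.70 in the 36 h comparison (adjusted p = 0.011) and by 0.71 in that of 48 h (adjusted p = 0.0017), from 740, 878 and 740 CPM at 0 h to 525, 447, 462 and 486 at 48 h. Rps27 (chr3:90212522-90213651, minus strand) fell most at 48 h, by 0.85 ± 0.24 (adjusted p = 0.014), from 843, 913 and 725 CPM to 547, 409, 442 and 442. Rpl37a fell by 0.63 at 48 h (adjusted p = 0.047), a call lost without 8 of the sections in turn, and the 48 h call of Rps27 was lost without 0 h section 3. Scaled to total UMIs, Rpl17 and Rpl35a were at 0.02 and 0.05 at 48 h.

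Rps27l, a paralogue of Rps27 known as a target of p53 (chr9:66946086-66949516, plus strand), was lower at all 3 times under TMM scaling, but not when scaled to total UMIs, where its differences were -0.05, -0.11 and -0.002 and did not pass. It had 930, 883 and 879 CPM at 0 h, 723 and 661 at 24 h, 607 and 622 at 36 h, and 646, 599, 617 and 624 at 48 h, with no overlap between injured and 0 h sections and with 36 h sections A and B alike. The log2 differences were -0.38 ± 0.10, -0.55 ± 0.10 and -0.53 ± 0.08 (adjusted p = 0.012, 0.0036 and 0.00058). Among other members with known single roles, some did not pass at any time against 0 h under TMM. They were Rpsa, also the laminin receptor, Rps4x, Rpl22, Rpl3, Rps6, Rpl39 and the stalk proteins Rplp0, Rplp1 and Rplp2, which recruit elongation factors. Their results when scaled to total UMIs, where the median member was higher than at 0 h, are not given here. For Rps6 the differences were -0.24 ± 0.17, -0.22 ± 0.17 and -0.36 ± 0.14.

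To see which members departed from the others, each was also scaled to the summed UMIs of the family, a scaling added after the data were seen. In this frame 13 of the 77 members were called at 24 h, 5 at 36 h and 3 at 48 h, beside 34.0%, 30.9% and 37.2% of all genes. Within the family Rpl35 took a mean of 0.565% of member UMIs in uninjured liver, 1.42% at 24 h, 1.04% at 36 h and 0.656% at 48 h. The 8 that gained share at 24 h were Rpl35, Rpl13a, Rpl38, Rpl4, Rpl31, Rps20, Rpl41 and Rpl5, and the 5 that lost share were Rps18, Rpl17, Rpl27a, Rpl35a and Rpl7a. At 48 h Rps27 (log2 difference -0.61) and Rpl10 (-0.47) had lost share and Rps20 (0.36) had gained it. Of the 5 called at 36 h, Rpl35, Rpl4, Rpl13a and Rpl38 were still higher and Rpl27a was lower. Members with and without the pyrimidine run of 7 or more had median TMM differences of -0.13 and -0.15 at 24 h, and 36 h gave -0.28 and -0.30 and 48 h -0.26 and -0.22.

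The ribosomal protein symbols below fall outside the rule. Fau and Rps3a1, both small subunit proteins, fell by 0.41 and 0.36 at 36 h (adjusted p = 0.020 and 0.022), values that were 0.03 and 0.08 when scaled to total UMIs. Among the paralogues, Rpl36al fell by 0.46 at 36 h and 0.49 at 48 h and Rpl22l1 by 0.59 at 36 h, Rpl7l1 did not pass against 0 h, and the retrogene Rps27rt fell by 1.27 at 24 h (adjusted p = 0.0096). The 36 h calls of Fau, Rps3a1 and Rpl22l1 were each lost without 3 or 4 of the sections in turn, and the 24 h call of Rps27rt without section A of that time.

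Other genes of the translation machinery were compared with 0 h in the same fit. Of 18 translation factors and other transcripts known to carry the tract, 3 were higher and 4 lower at 24 h, 1 and 7 at 36 h, and 2 and 8 at 48 h, with medians of -0.18, -0.30 and -0.24, and scaled to total UMIs the medians were 0.15, 0.13 and 0.29. Eef1a1, the elongation factor that carries aminoacyl-tRNA, fell by 0.55, 0.69 and 0.71 (adjusted p = 0.0041, 0.0028 and 0.00030), and Nap1l1, a histone chaperone, rose by 0.77, 0.69 and 0.72. Of 78 mitochondrial ribosomal proteins 5 were higher at 24 h and none later by edgeR, by DESeq2 or at an unadjusted p under 0.05, and 19, 37 and 57 were lower at 24, 36 and 48 h, with medians of -0.11, -0.36 and -0.37 that were 0.22, 0.08 and 0.16 when scaled to total UMIs. Of 46 initiation factors tested 16, 2 and 3 were higher and 5, 12 and 21 lower, with a median of 0.13 at 24 h, and of 12 genes of the mTORC1 and MYC axis 5, 1 and 2 were higher and 1, 2 and 6 lower, with a median of 0.07 at 24 h. Scaled to total UMIs, 29, 15 and 27 initiation factors were higher and 4, 1 and 1 lower, and 7, 7 and 8 axis genes were higher and none lower. Myc, a driver of ribosome synthesis, had 5.24, 2.08 and 2.71 CPM at 0 h and 6.63 to 11.5 CPM in all injured sections, with differences of 1.31, 1.34 and 1.57 (adjusted p = 0.0096, 0.014 and 0.0017). Larp1 did not pass at 24 h and fell by 0.45 at 36 h and 0.37 at 48 h.

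Across the lobule, ribosomal protein transcripts were concentrated away from portal-type spots, weakly at 0 h and much more so after APAP. Spots were ranked within each section by a score over 12 portal hepatocyte genes of the study, none of them a member, computed on spots thinned to 2000 UMIs each. Spots were then put in 5 bins of 20% each. From the lowest to the highest bin, the members' mean share of UMIs went from 6.29% to 5.58% in uninjured liver, from 8.75% to 5.71% at 24 h, from 8.44% to 5.38% at 36 h and from 9.83% to 5.63% at 48 h. It fell at each step in all 11 sections. The highest bins overlapped, with 5.46 to 5.80% at 0 h and 5.25 to 5.88% at 48 h, while the lowest bins did not, with 6.18 to 6.49% and 9.24 to 10.4%.

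**Figure D3:**
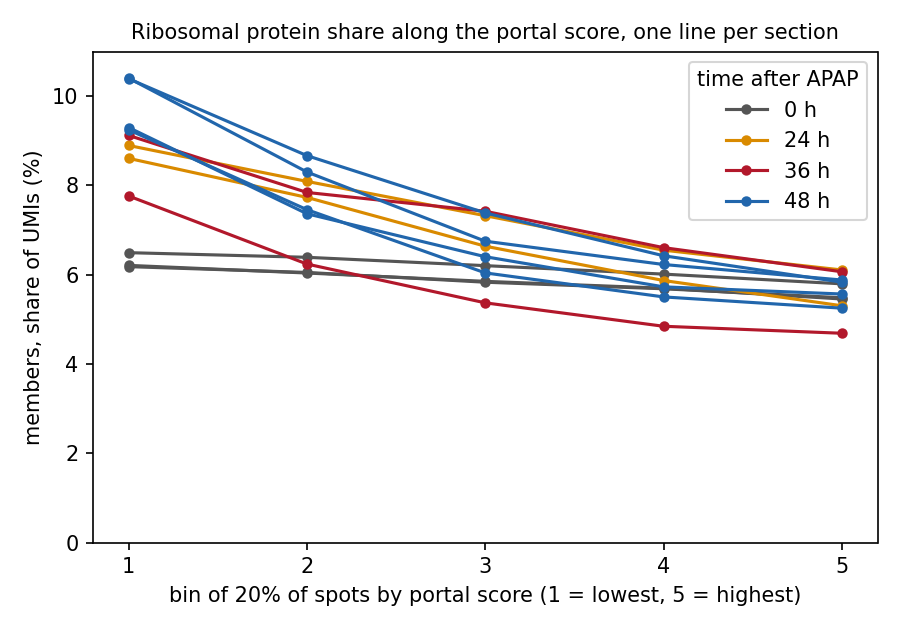
Share of UMIs from the 77 members (y axis, percent) in bins of 20% of spots ranked by portal score (x axis, 1 lowest, 5 highest), with 1 line per section coloured by time. The lines lie between 4.69 and 6.11% in the highest bin and fan out in the lowest, from 6.18 to 6.49% at 0 h to 9.24 to 10.4% at 48 h.

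For the test, the upper 25% of spots by portal score (portal-rich) were compared with the lower 25% (portal-poor) of the same section, with the section as a block. Members took 6.16%, 6.47% and 6.18% of UMIs in portal-poor spots at 0 h against 5.51%, 5.82% and 5.49% in portal-rich spots. In 24 h section A the shares were 8.78% and 6.18%, and in section B 8.51% and 5.33%. In 36 h section A they were 7.53% and 4.69%, and in section B 8.95% and 6.11%. The 36 h sections thus differed in level, and both were higher in portal-poor spots. At 48 h portal-poor spots held 10.1%, 9.0004%, 10.2% and 9.03% in sections A to D, and portal-rich spots 5.92%, 5.28%, 5.92% and 5.59%. Portal-poor shares were thus 1.11 to 1.13 times the portal-rich ones at 0 h, 1.42 to 1.61 times at 24 and 36 h and 1.62 to 1.72 times at 48 h.

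By edgeR over 13682 genes, 12 of the 77 members were lower in portal-rich spots at 0 h, where 5.24% of all genes were called lower. After APAP 70 were lower at 24 h (13.4% of all genes), 74 at 36 h (14.4%) and 73 at 48 h (35.0%), and no member was higher at any time, also at an unadjusted p under 0.05. The median log2 differences were -0.11, -0.32, -0.31 and -0.32, beside all-gene medians between -0.04 and 0.00, and 67 members were called at all 3 injured times. By UPM and without a test, all 77 were lower in portal-rich spots of every injured section. The same held for 76 of them in every 0 h section, and the share of all genes is not given here. The zone difference itself was larger than at 0 h for 29 members at 24 h, 29 at 36 h and 53 at 48 h, beside 7.15%, 8.76% and 21.1% of all genes called in that direction. Scaled to total UMIs, 40 members at 0 h and all 77 at each injured time were lower in portal-rich spots, with the share of all genes called under that scaling not given here. The 0 h calls were all lost when any single 0 h section was left out, and numbered 24 without 48 h section C. The 24 h count fell to 39 without section B, and the 36 h count to 40 without section A. Members whose zone difference had widened numbered 1 at 24 h without section B and 5 at 36 h without section A, and without 1 of the 0 h sections 11 or 12 at 24 h and 13 to 17 at 36 h.

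**Figure D4:**
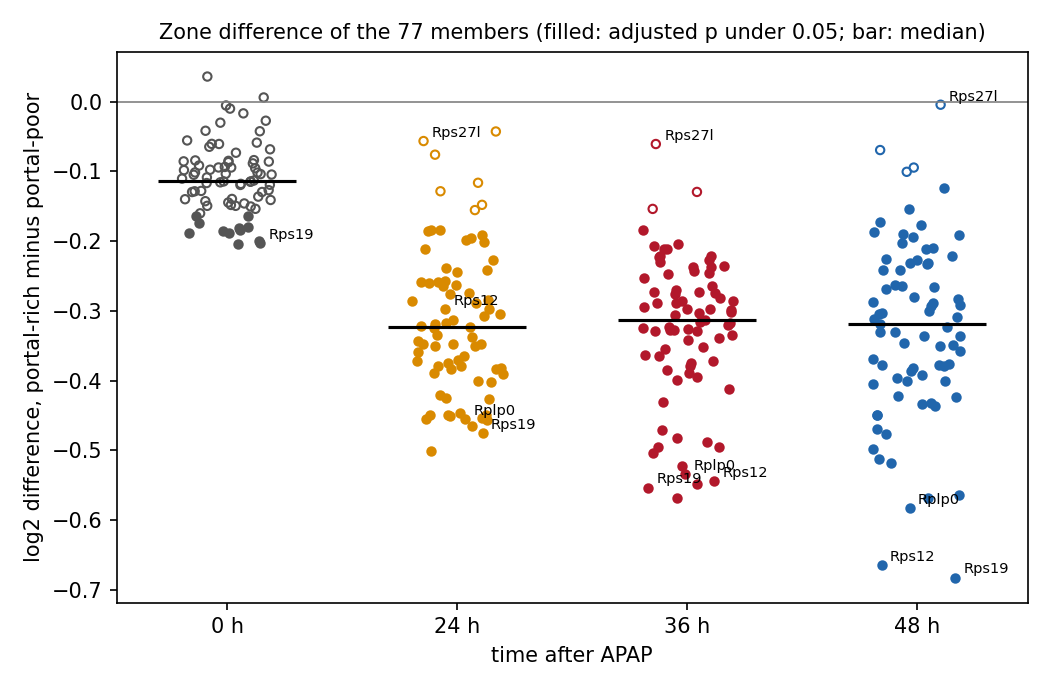
Log2 difference between portal-rich and portal-poor spots (y axis) for the 77 members at each time after APAP (x axis), 1 point per gene, filled where the adjusted p was under 0.05, with the median as a bar. The median lies at -0.11 at 0 h and near -0.3 at the injured times, and Rps27l stays near 0 after injury under this TMM scaling.

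The members differed in how steep they were. Rps19, a small subunit protein whose loss causes Diamond-Blackfan anaemia (chr7:24884371-24889806, plus strand), had 748, 780 and 734 UPM in portal-poor and 631, 653 and 614 in portal-rich spots at 0 h. At 48 h it had 1380, 1038, 1413 and 1165 in portal-poor and 614, 481, 642 and 569 in portal-rich spots, with no overlap. Its TMM log2 difference went from -0.20 ± 0.05 (SE) at 0 h to -0.48 ± 0.07, -0.55 ± 0.07 and -0.68 ± 0.05 at 24, 36 and 48 h (adjusted p = 0.013, 2.9e-06, 2.4e-07 and 2.1e-13). The change of this difference from 0 h was -0.48 ± 0.07 at 48 h (adjusted p = 2.6e-06). Rps12, a small subunit protein whose gene lies at chr10:23785183-23787275 on the minus strand, had 2327, 2036, 2330 and 1920 UPM in portal-poor and 1031, 958, 1061 and 972 in portal-rich spots at 48 h. Its difference was -0.67 ± 0.05 (adjusted p = 2.0e-12), against -0.10 ± 0.06 at 0 h, which did not pass.

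The stalk proteins, which bring the elongation factors to the ribosome, were all among the steeper members. Rplp0 (chr5:115559467-115563727, plus strand) had -0.14 ± 0.06 at 0 h, which did not pass, and -0.46, -0.53 and -0.58 at 24, 36 and 48 h. Rplp1 had -0.20 at 0 h (adjusted p = 0.022) and -0.51 at 48 h, and Rpl39, which lines the exit tunnel, had -0.20 (adjusted p = 0.015) and -0.47. Rpsa had -0.02 ± 0.05 at 0 h and -0.38 ± 0.05 at 48 h, and Rps6 had 0.01 ± 0.05 and -0.23 ± 0.05. Rpl35 and Rpl13a, the risers of 24 h, both differed by -0.45 at 24 h (adjusted p = 4.8e-06 and 2.0e-05), and neither passed at 0 h.

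Rps27l stood apart. It had 887, 806, 842 and 796 UPM in portal-poor and 622, 578, 619 and 647 in portal-rich spots at 48 h, a smaller step than its neighbours, and its TMM difference was -0.13 ± 0.05, -0.06 ± 0.07, -0.06 ± 0.07 and 0.00 ± 0.05 at 0, 24, 36 and 48 h. Under TMM it was the only member that passed at none of the 4 times, while scaled to total UMIs it was lower in portal-rich spots at all 4, with log2 differences of -0.18, -0.34, -0.36 and -0.43. The other members without a call at 48 h were Rpl7a, Rpl36 and Rpl24. With the family's own sum as the scale, Rps27l was relatively higher in portal-rich spots at 24, 36 and 48 h, by 0.25, 0.26 and 0.32. In that frame, 27 members were called at 48 h, beside 73.1% of all genes, of which 13 led in portal-poor spots, with Rps19, Rps12, Rplp0, Rps15a and Rpl12 furthest, and 14 in portal-rich spots, with Rps27l, Rpl24, Rpl36 and Rpl7a furthest. No member was called at 0 h in that frame, with 1 at an unadjusted p under 0.05.

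**Figure D5:**
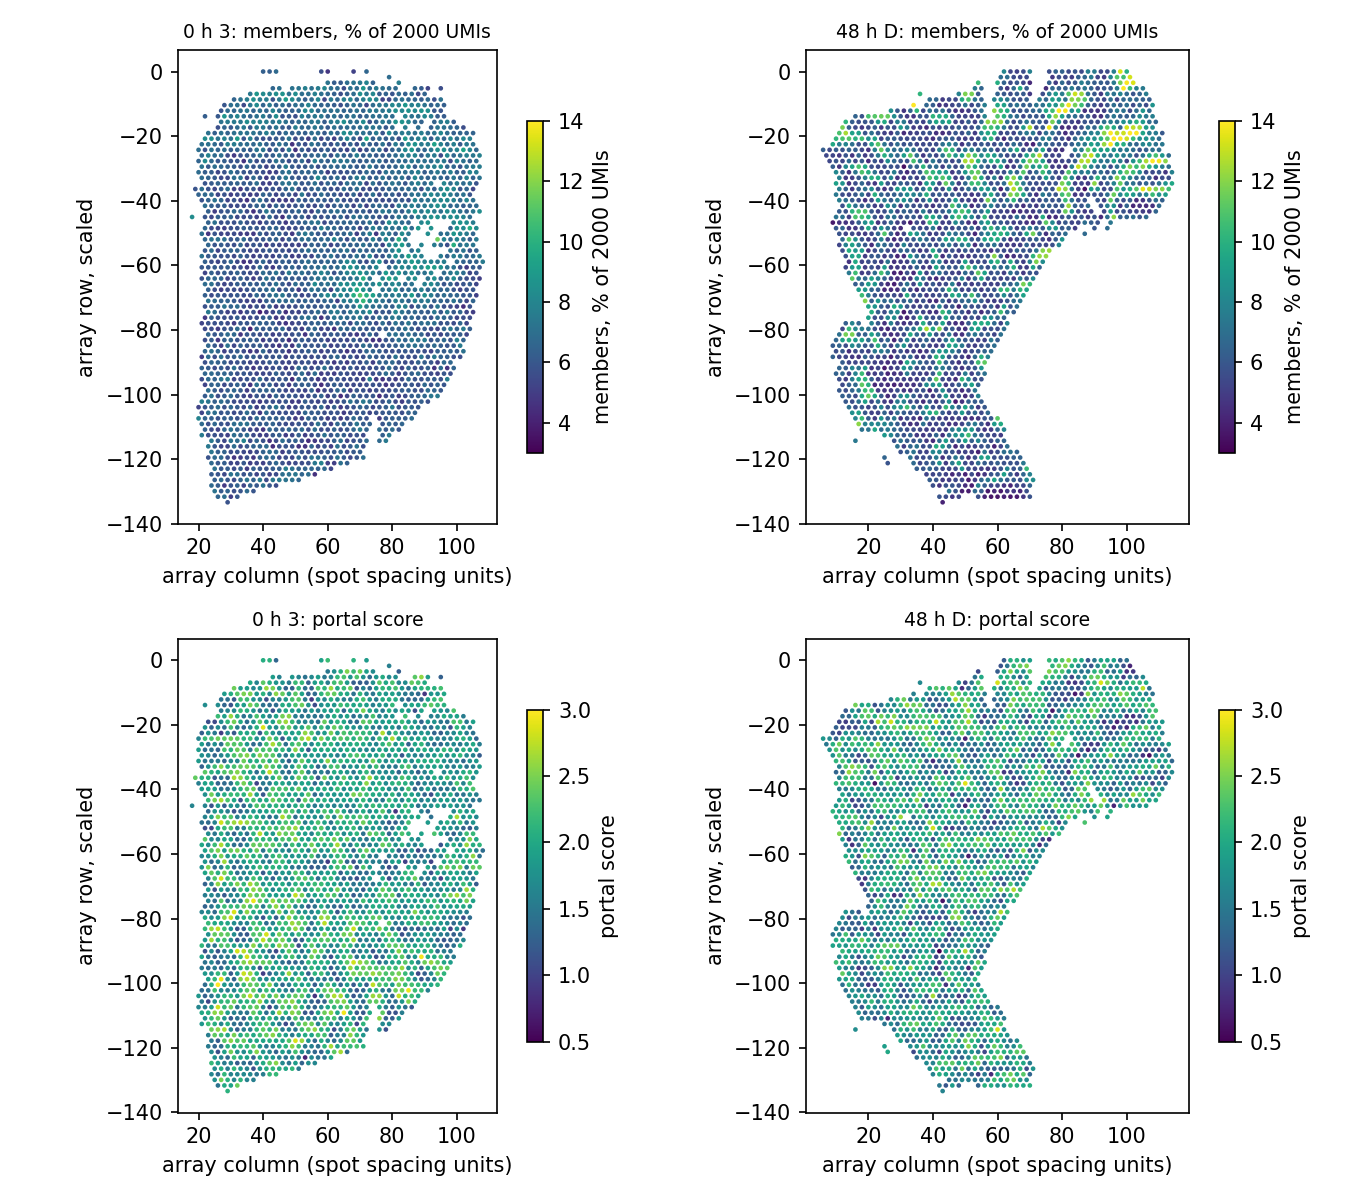
Spot maps of the deepest 0 h section (section 3, left) and the deepest 48 h section (section D, right), with array column and scaled array row as axes. Colour shows the members' percent of 2000 thinned UMIs (top) and the portal score (bottom), and the 48 h section has bands of high member share where the portal score is low.

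Spot by spot, the thinned member share ran against the portal score in all 11 sections, with Spearman's rho of -0.42 to -0.34 at 0 h and -0.72 to -0.50 after APAP. These coefficients describe 1489 to 3449 spots per section that share a library and a fixed total of 2000 UMIs. At 0 h the share also ran against the UMIs of a spot (rho -0.51 to -0.28), and after APAP it did so little (-0.16 to 0.28). With the summed level of 29 markers of immune, mesenchymal and endothelial cells, it had a rho of 0.14 to 0.18 at 0 h, 0.44 to 0.71 at 24 and 36 h and 0.70 to 0.83 at 48 h. With the central score it had 0.12 to 0.31 at 0 h and -0.45 to -0.17 at 48 h, a change of sign.

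Markers of other cells moved with the zones. Summed over the 29 genes, portal-poor spots held 763 to 843 UPM at 0 h, 1382 to 2389 at 24 and 36 h and 3576 to 7045 at 48 h, while portal-rich spots held 673 to 724 at 0 h, 706 to 1123 at 24 and 36 h and 935 to 1697 at 48 h. Hepatocyte markers stood at 80614 to 82584 UPM in portal-poor and 104658 to 106496 in portal-rich spots at 0 h, and at 73617 to 93125 and 111920 to 132520 at 48 h. The zone test was therefore repeated on the 50% of spots in each section with the smallest share of those markers, a choice made after the data were seen. In those spots, marker levels at 48 h were 878 to 1721 UPM in portal-poor and 805 to 1480 in portal-rich spots. Cholangiocyte markers were not among the 29 genes. At 24 h they still stood at 1109 to 1235 UPM in portal-poor and 615 to 760 in portal-rich spots of this choice. Hepatocyte markers there stood at 87619 to 104143 and 110820 to 129663 UPM. Members lower in portal-rich spots then numbered 50 in uninjured liver and 68, 59 and 50 at 24, 36 and 48 h, beside 7.28%, 5.75%, 1.76% and 4.76% of all genes, with medians of -0.12, -0.24, -0.21 and -0.11. The difference from the 0 h zone effect passed for 14 members at 24 h and 3 at 36 h, with the shares of all genes not given here. At 48 h it passed for none by edgeR, with 3 at an unadjusted p under 0.05 and a median of -0.01. In these spots the zones were also closer in portal score after APAP, with a difference between portal-rich and portal-poor spots of 0.74 to 0.87 at 48 h, against 1.06 to 1.13 with all spots and 1.01 to 1.04 in the same spots at 0 h. The part of that narrower contrast, and of the smaller marker difference, in the lower counts was not tested.

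Under TMM, other translation genes did not all share the zone pattern. Of the 18 transcripts known to carry the tract, 12, 9 and 10 were lower in portal-rich spots at 24, 36 and 48 h. At 0 h 0 were called lower, and 2 had an unadjusted p under 0.05. The 4 that were higher in portal-rich spots at 48 h under TMM were Eif4a2 (0.47), Eef2 (0.13), Naca (0.12) and Eif4b (0.11). For these 18 the zone differences scaled to total UMIs are not given here. Hnrnpa1, a splicing factor, was lowest there, at -0.91 at 48 h, and Eef1a1 had 0.03. Mitochondrial ribosomal proteins went the other way under TMM, with 49 of 77 higher and 5 lower in portal-rich spots at 48 h and a median of 0.16, but with total UMIs none was higher, 59 were lower and the median was -0.27. For the cytosolic members the median with total UMIs was -0.75. Of the initiation factors 10 were higher and 14 lower at 48 h, and of the mTORC1 and MYC axis 6 and 4, which with total UMIs became 0 and 42, and 0 and 8. Myc was lower in portal-rich spots by 1.56, 1.13 and 0.76 on the log2 scale at the 3 injured times.

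In 48 h sections A, C and D, spots with few hepatocyte transcripts were richer in ribosomal protein transcripts than the other spots. Hepatocyte-low spots were those whose score over 6 hepatocyte genes lay under the 5th percentile of 0 h spots. Among injured sections, the 1st percentile left 20 or more only in 48 h section C. Uninjured sections 2, 3 and 4 held 119, 160 and 73 spots under the 5th percentile, whose member share is not given here. At 48 h sections A, C and D had 58, 131 and 26 such spots, in which members made up 13.3%, 12.04% and 11.4% of UMIs, against 7.54%, 7.54% and 6.83% in the other spots. Mononuclear phagocyte markers stood at 3379 to 7916 UPM there, against 774 to 1426 in the others, and mesenchymal markers at 3170 to 6593 against 722 to 1551. Which cells held the members' transcripts was not tested.

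By edgeR over 13951 genes, 47 of the 77 members were higher in hepatocyte-low spots and 1 lower, beside 21.3% and 24.2% of all genes, with a median of 0.20 against -0.02 for all genes. Rps19 led, with 2139, 1814 and 1620 UPM against 895, 955 and 785, a TMM difference of 0.53 ± 0.07 (adjusted p = 8.3e-13). Rps15a followed at 0.47 ± 0.07 and Rps12 at 0.45 ± 0.07. The 1 that fell was Rps27l, by 0.34 ± 0.07 (adjusted p = 2.1e-05), although its UPM were 953, 810 and 724 against 734, 715 and 709, and scaled to total UMIs it was higher by 0.20. Mitochondrial ribosomal proteins had 1 higher and 33 lower of 77, and 41 higher and 1 lower with total UMIs.

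Several members have close copies that counting could split. GENCODE names 1 or more pseudogenes for 59 of the 77, among them 24 for Rps12, 14 for Rps19 and 8 for Rps15a, whose levels are therefore uncertain. Chromosomal positions of whole genes are from GENCODE on GRCm38.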

How the data were processed

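Spatial libraries of 11 mouse liver sections were used. Per the submitters' processing notes, the authors ran Space Ranger 1.0.0 and Seurat 4.1.1 on the mm10 build. The deposited values are raw UMI counts per gene for 4992 spots, all of which share the barcodes of the slide design. Tissue spots were required to show 800 or more genes and no more than 20% mitochondrial UMIs, which removed 0 to 103 spots per section, and counts were summed per section or zone. Tests used edgeR 4.0.16 in R 4.3.3 (filterByExpr, TMM, robust quasi-likelihood, two-sided, Benjamini-Hochberg over all genes tested), with all 11 sections in 1 fit. The steps were tested on simulated data. Of 100 genes changed 2-fold, 45 were recovered at 24 h and 60 at 48 h against 0 h. Of 100 changed 1.3-fold, 0 and 1 were recovered. In the 48 h zones 88 and 45 were recovered, and 9 of 142 calls were false. A member that did not pass in a section comparison may thus still have changed. Zones were the upper and lower 25% of spots by portal score, leaving out spots under the 1st percentile of hepatocyte score. Hepatocyte-low spots were tested in 48 h sections only, at the 5th percentile because the 1st left 1 injured section with 20 or more such spots. The members and lists were chosen with earlier results of these data known. Genes were named if they were the 4 most raised or lowered calls against 0 h, the 3 most raised or lowered by zone or in hepatocyte-low spots, on a set list of subunits with single roles, outside the rule by symbol, or next to its threshold. Genes outside these, such as those called in the family's own scale, were named after their values were seen. Alternatives were total-count and family scaling, DESeq2 1.42.0, other filters, spots and zone rankings, fewer groups and leaving out each section. Promoter windows were read with Python 3.11.15. Whether section letters pair the samples is not known, and no block on them was used in the main fit. Intervals of counting error were not needed at this depth.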

Additional observations from a re-analysis of the deposited data

Results flagged for a closer look

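The difference between portal-rich and portal-poor spots was itself different from that at 0 h, by a test of the difference, for 29 members at 24 h, 29 at 36 h and 53 at 48 h. In each of these the members were lower in portal-rich spots by more than at 0 h. In the 50% of spots with the fewest markers of non-hepatocyte cells the numbers were 14, 3 and 0, with the shares of all genes not given here. The part of those cells was not tested beyond this.

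At 48 h the lowest section stood apart from the other 3 for Rpl22l1, at 211 CPM in section D beside 260 to 268, and the highest for Rpl38, at 1086 CPM in section A beside 868 to 904. Chance flags about 1 in 20 groups, and 37 groups were looked at.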

How the results depend on the processing

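Both the section and the zone comparisons depended on the processing. Counts below are members called in either direction, without the shares of all genes called, and the cause of each move was not tested unless named. With total-count scaling they were 23, 14 and 32 at 24, 36 and 48 h against 0 h, all higher, 0 from 24 to 36 h, 40 for the 0 h zones, 75 and 76 for the zone differences of 24 and 36 h from 0 h, and 77 in hepatocyte-low spots. Scaled to the members' sum, a choice made after seeing the data that sets their mean change to 0, they were 5 and 3 at 36 and 48 h, 0, 1 and 5 between injured times, 0, 6, 9 and 27 for the zones, and 1, 2 and 12 for the zone differences. Without a filter on low counts they were 14 at 24 h (6 higher, 8 lower), 0 from 24 to 36 h and 1 from 36 to 48 h. With only the groups compared they were 38 at 24 h (9 higher, 29 lower), 4 at 36 h, and 0 from 24 to 36 h and from 36 to 48 h. DESeq2 gave 23 at 24 h (9 higher, 14 lower), 16 from 24 to 36 h and 9 from 36 to 48 h (5 higher). With the section letter as a replicate block among injured sections the counts were 0 from 24 to 36 h, 0 from 36 to 48 h and 2 from 24 to 48 h, and without it 0 and 0 for the first 2. Correlations of deviations between sections of the same letter ran from -0.24 to 0.29. With so few sections per time point they cannot tell whether the letters mark pairs. Ranking by portal minus central score gave 24 for the 0 h zones and 45, 17 and 17 for the differences, keeping hepatocyte-low spots gave 7 at 0 h, and the 50% of spots with fewest non-hepatocyte markers gave 50 at 0 h and 14, 3 and 0 for the differences.

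Leaving out 1 section at a time gave 6 to 36, 10 to 45 and 7 to 40 at 24, 36 and 48 h against 0 h, 0 to 9 from 24 to 36 h, 0 to 9 from 36 to 48 h and 6 to 16 from 24 to 48 h, 0 to 24, 39 to 72, 40 to 75 and 73 to 75 for the zones, 1 to 42, 5 to 39 and 39 to 62 for the zone differences, and 32 to 40 in hepatocyte-low spots. For the zone differences the lowest counts came without 24 h section B and 36 h section A. The mean share at 0 h was 6.28% without mitochondrial UMIs, and without the 50 most abundant other genes the shares were 10.2%, 11.5%, 10.4% and 10.98% from 0 to 48 h.

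Single genes that changed sign did so under total-count scaling for 36 h, Fau (0.028) and Rps3a1 (0.078), for 48 h, Fau (0.31), Rpl13a (0.064), Rpl17 (0.015), Rpl35 (0.49), Rpl35a (0.049), Rpl36al (0.042), Rpl4 (0.42), Rpl7l1 (0.42) and Rps3a1 (0.41), and for Rps27l in hepatocyte-low spots (0.20), and under family scaling for the Rps27l zones (0.25, 0.26 and 0.32).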
